A study of Drosophila melanogaster with 12 samples.

Results

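The interaction between genotype and feeding was followed across all 12 samples of the study. It asks which genes responded to starvation differently in dSTING mutants and in control flies. For each of 13554 genes the change from fed to starved flies was taken in the mutants, and the same change in the controls was subtracted from it. The result is a difference of 2 responses on the log2 scale. It is above 0 where a gene rose more, or fell less, in starved mutants than in starved controls.

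Each sample was total RNA from whole bodies of 10 males, 5 days after eclosion, hybridised to 1 expression array. The controls had the genotype w1118, and the mutants, labelled dSTINGknock, carried a deletion of dSTING (dSTINGΔ) that was made by imprecise excision of a transposon. Males of both genotypes spent 4 days on regular food, and then either stayed on it (fed) or were kept for 24 hr in empty vials with moist paper (starved). The 4 groups were fed controls, starved controls, fed mutants and starved mutants, with 3 samples each. One mutant and one control stock were compared, so the effect of the deletion and that of other differences between the stocks cannot be told apart. The labels do not say whether samples of a group came from separate crosses, so p-values measure the spread between these samples. In whole-body RNA, fewer cells of a type and less RNA per cell cannot be told apart.

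STING is a membrane protein of the endoplasmic reticulum best known for its part in innate immunity, and in flies its signalling runs through the NF-kappaB factor Relish. A starved fly draws on the glycogen and triglyceride of its fat body, an organ that combines tasks of liver and adipose tissue and exports lipid on the lipoprotein lipophorin. When nutrients run out, insulin and Tor signalling fall, FOXO turns on its targets, and cells start autophagy.

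dSTING itself (CG1667) was measured first, as a check of the labels. Its log2 value was 5.44, 5.82 and 6.28 in fed controls, 5.24, 5.39 and 5.49 in starved controls, 1.98, 2.38 and 2.38 in fed mutants, and 2.36, 2.54 and 2.57 in starved mutants. All 6 mutant arrays lay below all 6 control arrays. The difference of its responses was 0.72 ± 0.25 (SE), which did not pass the test (limma adjusted p = 0.166). Of 44 markers of 10 tissues, 43 were measured, and the median marker of each tissue lay between the 55.0th and the 99.4th percentile of signal. The fat body marker Fbp1, a receptor known from larvae, lay at the 2.48th percentile. The median log2 value of an array ran from 5.82 to 5.88, and the arrays farthest from their group mean were 2 fed controls (root mean square deviation 0.209 and 0.199, against 0.116 to 0.165 for the other 10).

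The number of genes called for starvation depended on the arrays used. In controls 1522 genes were called at a limma adjusted p under 0.05 (11.2% of genes tested), of which 770 rose (5.68%) and 752 fell (5.55%). In mutants 2280 were called (16.8%), of which 990 rose (7.30%) and 1290 fell (9.52%). At an unadjusted p under 0.05, 29.0% of genes passed in controls and 29.3% in mutants. The order of the counts turned without control fed replicate 1 (3011 in controls and 2614 in mutants) and with array quality weights (4528 and 3315). In controls it fell to 488 without control fed replicate 3, and to 370 and 556 without control starved replicates 1 and 2. The root mean square of the log2 response was 0.308 in controls and 0.402 in mutants. Both responses, which share no array, correlated across genes with a Pearson r of 0.562 and a Spearman rho of 0.389 (genes are not independent replicates). Of the genes called in controls, 48.9% were called the same way in mutants, and of those called in mutants, 32.7% were called the same way in controls.

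The interaction was called for 180 genes (1.33% of genes tested), 80 above 0 (0.590%) and 100 below 0 (0.738%). All 180 had responses that differed by more than 1.4 fold, and 2413 genes (17.8%) had an unadjusted p under 0.05. When every array was centred on its own median, 171 genes were called, and the split turned to 95 above 0 and 76 below 0. The count depended on single arrays. It was 87 without control fed replicate 2, 86, 85 and 64 without dSTING mutant fed replicates 1, 2 and 3, 92 and 58 without control starved replicates 1 and 2, and 80 and 84 without dSTING mutant starved replicates 1 and 2. It was 934 without control fed replicate 1, which kept all 180 genes, and 276 without dSTING mutant starved replicate 3. No called gene changed its sign in any of these fits.

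For most called genes the mutants made the larger move. Of the 180 genes, 120 were called for starvation in mutants only, 57 rising and 63 falling. Over all 13554 genes, 1529 were called in mutants only and 771 in controls only. Another 42 were called in both genotypes in the same direction, 12 in controls only, and 6 in both genotypes in opposite directions. With responses at an unadjusted limma p under 0.05, the class of mutants only held 76 genes. In 126 genes both responses had the same sign and that of the mutants was larger, in 3 it was smaller, and in 51 the signs differed. Between the genotypes, the absolute log2 difference in these genes had a median of 0.254 in fed flies and 0.897 in starved flies, and it was larger in starved flies for 152 of 180. The interaction equals the genotype difference in starved flies minus that in fed flies, so calling by it favours genes with unequal differences. Over all genes the root mean square response was also larger in mutants (0.402 against 0.308), and the same counts over all genes are not given here.

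**Figure D1:**
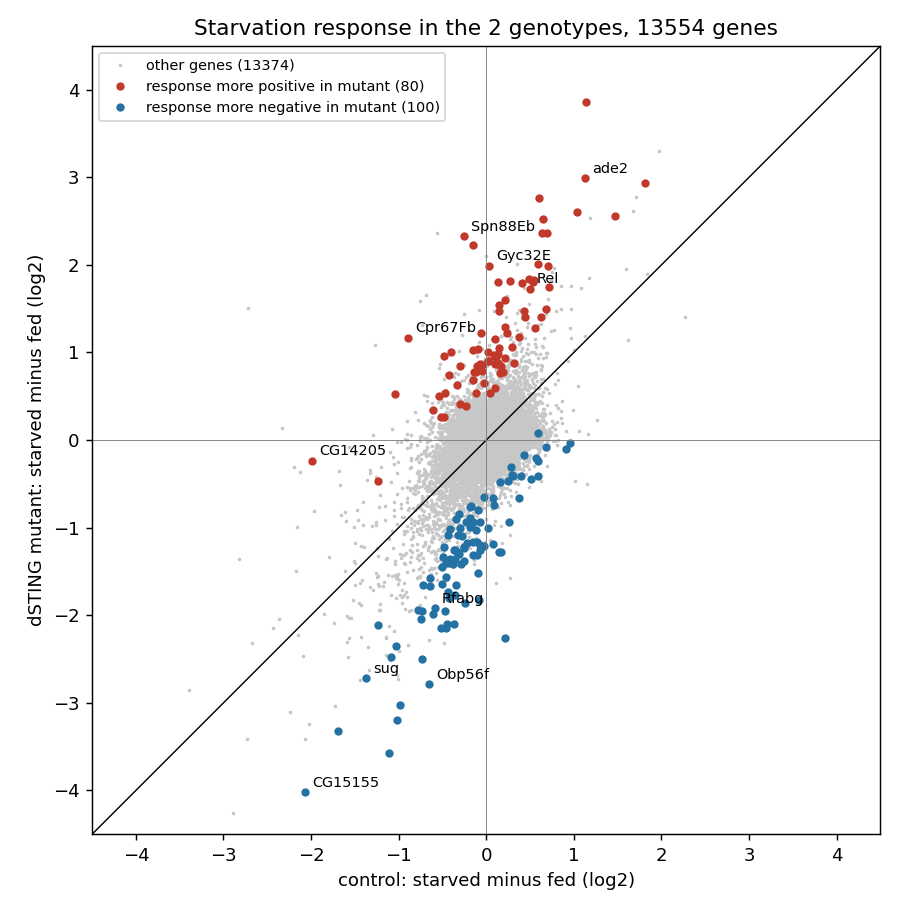
Change from fed to starved flies (log2, difference of group means, n = 3 arrays per group) in controls on the horizontal axis and in dSTING mutants on the vertical axis, 1 point per gene, with genes called for the interaction in red (80, above the diagonal) and blue (100, below it). On the black diagonal both responses are equal. Of the 180 called genes, 120 were called for starvation in mutants only (76 with responses at an unadjusted limma p under 0.05).

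The smallest interaction p-value belonged to Gyc32E, a receptor-type guanylyl cyclase. Its log2 value was 2.60, 2.72 and 2.79 in fed controls, 2.62, 2.78 and 2.81 in starved controls, 2.84, 2.95 and 2.97 in fed mutants, and 4.70, 4.90 and 5.12 in starved mutants. The starved mutants stood far above the other 3 groups. Signal of this gene was low in every group, and both filters on signal left it out. The responses differed by 1.96 ± 0.15 (SE), or 3.88 fold (limma adjusted p = 0.000205). The serpin gene Spn88Eb behaved in the same manner, with 7.50, 7.71 and 8.58 in starved mutants against 5.31 to 6.09 in the other 9 arrays, and its responses differed by 2.58 ± 0.34 (adjusted p = 0.00372). For CG6870 the starved mutants lay at 8.46 to 9.59 and the other arrays at 6.23 to 6.89, with an interaction of 2.38 ± 0.31 (adjusted p = 0.00372).

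Relish (Rel), the NF-kappaB factor of the Imd immune pathway, rose in both genotypes and more in mutants. It was at 7.06, 7.06 and 7.28 in fed controls and at 7.50, 7.63 and 7.75 in starved controls. Fed mutants were at 6.97, 7.06 and 7.22, and starved mutants at 8.65, 8.81 and 8.97. The fed groups overlapped, and every starved mutant array lay above every starved control array. The rise was 0.50 in controls (adjusted p = 0.0164) and 1.73 in mutants (adjusted p = 1.24e-06), and the interaction of 1.23 ± 0.16 was called (adjusted p = 0.00361). It stayed called when any 1 array was left out (adjusted p up to 0.0150). Rel was the only one called for the interaction among 39 measured Toll and Imd pathway genes, against 1.33% of all genes. PGRP-SA, a recognition protein of the Toll pathway, had a response of -0.74 in controls and 0.05 in mutants, with an interaction of 0.79 that did not pass (adjusted p = 0.0761).

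De novo purine synthesis builds the purine ring step by step. Of 11 measured enzymes 5 rose in starved controls and 8 in starved mutants, where 5.68% and 7.30% of all genes rose, and none fell. For the interaction 3 were called, all above 0, against 0.590% of all genes. The median response was 0.45 in controls and 1.02 in mutants, and the median interaction was 0.32, against 0.01 over all genes. For ade2, the phosphoribosylformylglycinamidine synthase, fed controls were at 6.01, 6.04 and 6.20 and starved controls at 6.64, 7.25 and 7.73. Fed mutants were at 5.60, 5.67 and 5.76, below the fed controls, and starved mutants at 8.37, 8.69 and 8.93, above the starved controls. Its responses differed by 1.86 ± 0.31, or 3.64 fold (adjusted p = 0.0130). The trifunctional enzyme ade3 rose by 1.81 in controls and by 2.93 in mutants (interaction 1.12 ± 0.21, adjusted p = 0.0263), and ade5 by 1.4 in mutants, with a response of 0.45 in controls (interaction 0.95 ± 0.21, adjusted p = 0.0452). Prat2, which catalyses the first step, had a response of -0.09 in controls and 1.05 in mutants, and its interaction of 1.13 did not pass (adjusted p = 0.0759). The calls of ade3 and ade5 held in 7 and 3 of 12 fits that each left out 1 array, with adjusted p up to 0.0852 (without dSTING mutant fed replicate 3) and 0.120 (without control starved replicate 2).

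Serine synthesis feeds one-carbon units into purine synthesis. Of 15 measured serine and folate one-carbon enzymes, 2 were called for the interaction, both above 0, against 0.590% of all genes. Their median interaction of 0.20 ran from 0.05 to 0.34 when single arrays were left out. CG11899, the phosphoserine aminotransferase, was at 6.61, 6.65 and 6.81 in fed controls, 6.58, 6.66 and 7.27 in starved controls, 6.44, 6.57 and 6.77 in fed mutants, and 8.05, 8.18 and 8.18 in starved mutants. Only the starved mutants were clear of the other groups, and the interaction was 1.4 ± 0.22 (adjusted p = 0.0125). The phosphoserine phosphatase aay, which makes serine in the next step, rose by 0.71 in controls and by 1.99 in mutants (interaction 1.28 ± 0.26, adjusted p = 0.0376, called in 4 of 12 fits without 1 array, up to 0.102 without dSTING mutant starved replicate 2). CG5955, the threonine dehydrogenase Tdh, rose by 0.69 in controls and by 2.36 in mutants (interaction 1.67 ± 0.28, adjusted p = 0.0131). Among 36 genes of amino acid breakdown and nitrogen handling it was the only one called, against 1.33% of all genes.

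Of 25 measured core autophagy genes, 1 rose in starved controls and 12 in starved mutants, where 5.68% and 7.30% of all genes rose, and none fell in either. For the interaction 3 were called, all above 0, against 0.590% of all genes, and 20 of 25 had a value above 0, against 50.8% of all genes. Atg18b, a phosphoinositide-binding protein of the forming autophagosome, was at 7.45, 7.52 and 7.61 in fed controls and at 7.73, 8.05 and 8.27 in starved controls. It was at 7.19, 7.43 and 7.53 in fed mutants and at 8.96, 9.25 and 9.45 in starved mutants. Fed groups overlapped and starved groups did not. The interaction was 1.35 ± 0.21 (adjusted p = 0.0125) and stayed called without any 1 array. Atg1, the kinase that starts autophagy, was at 6.58 to 6.82 in fed controls, 6.83 to 7.03 in starved controls, 6.79 to 6.89 in fed mutants, and 7.78 to 8.35 in starved mutants, with an interaction of 0.99 ± 0.18 (adjusted p = 0.0231). Syx17, the syntaxin that joins autophagosomes to lysosomes, rose by 1.06 in mutants and had a response of 0.14 in controls (interaction 0.91 ± 0.16, adjusted p = 0.0198). Both were called in 6 of 12 fits without 1 array, with adjusted p up to 0.0844 and 0.0724 without control starved replicate 2.

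**Figure D2:**
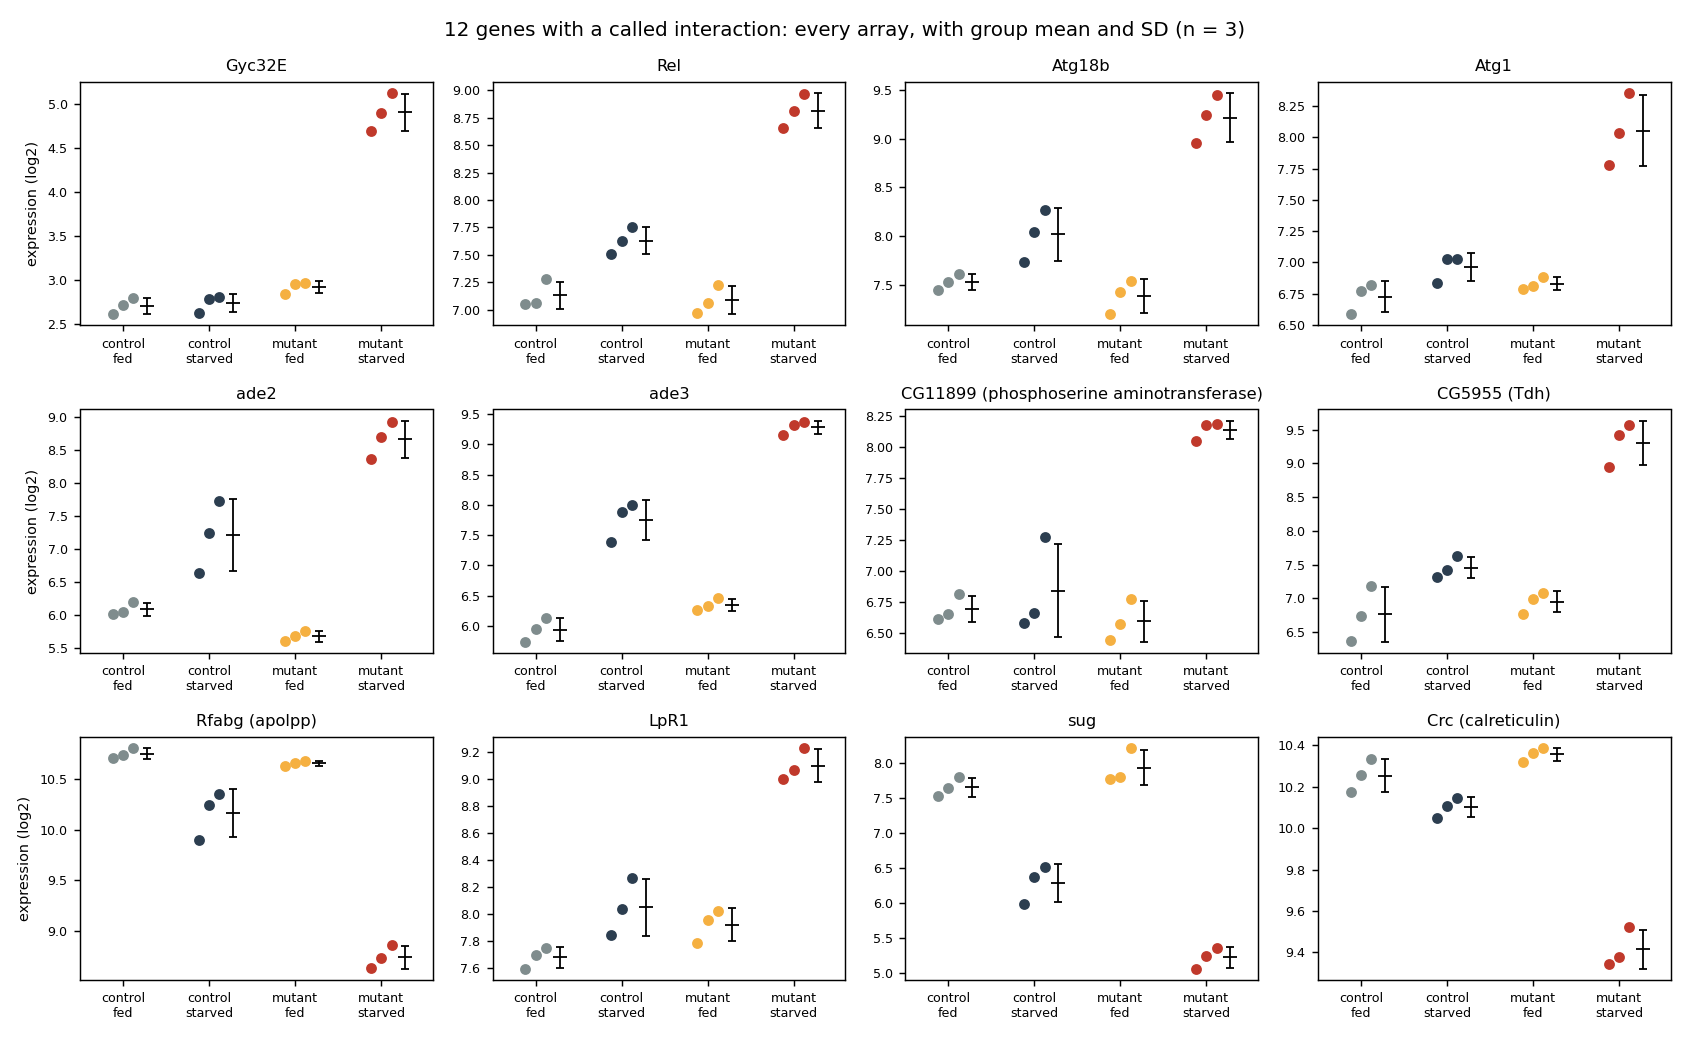
Log2 expression of 12 genes called for the interaction on every array (points, 3 arrays per group), with the group mean and SD beside them; the vertical scales differ between panels. In each panel the starved mutants, in red, lie beyond the starved controls, while the means of the fed groups lie closer together.

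None of 23 measured genes of the insulin and FOXO axis was called for the interaction by limma. An unadjusted p under 0.05 was found for 10 of 23, against 17.8% of all genes. Among 20 adipokinetic hormone and starvation factor genes 1 was called above and 1 below 0, against 0.590% and 0.738% of all genes. Their median interaction was -0.06. Thor, the translation inhibitor 4E-BP and a FOXO target, rose by 0.59 in controls and by 1.31 in mutants (interaction 0.73, adjusted p = 0.0575), and the insulin receptor InR by 0.96 and 1.76 (interaction 0.79, adjusted p = 0.0682). Both interactions missed the threshold. Sugarbabe (sug), a zinc-finger factor of the sugar response, fell in both genotypes. It was at 7.53, 7.65 and 7.80 in fed controls, 5.98, 6.37 and 6.51 in starved controls, 7.78, 7.80 and 8.22 in fed mutants, and 5.05, 5.24 and 5.35 in starved mutants. The starved groups did not overlap, and the responses differed by -1.35 ± 0.22 (adjusted p = 0.0125). bigmax, the Mlx partner of the sugar sensor Mondo, had a response of -0.07 in controls and rose by 0.86 in mutants (interaction 0.93 ± 0.20, adjusted p = 0.0471, called in 2 of 12 fits without 1 array, up to 0.137 without control starved replicate 2).

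Lipid genes moved in both directions. Of 22 lipoprotein and lipid transport genes 2 were called above and 1 below 0, against 0.590% and 0.738% of all genes. Of these 22, 14 lay below 0 (median interaction -0.19), where 50.8% of all genes lay above 0. Of 20 triglyceride synthesis and lipid droplet genes 1 was called, above 0, and 11 lay below 0 (median -0.15). None of 20 fatty acid elongases and 28 neutral lipases was called, and 14 and 18 lay below 0. Rfabg, the lipophorin precursor now named apolpp, was at 10.71, 10.74 and 10.81 in fed controls and at 9.89, 10.24 and 10.35 in starved controls. Fed mutants were at 10.63, 10.66 and 10.68, and starved mutants at 8.63, 8.73 and 8.86. It fell by 0.59 in controls and by 1.92 in mutants, and the interaction of -1.33 ± 0.16 (adjusted p = 0.00351) stayed called without any 1 array. LpR1, a lipophorin receptor, rose by 1.18 in mutants with a response of 0.37 in controls (interaction 0.81 ± 0.16, adjusted p = 0.0339), and the lipin phosphatidate phosphatase Lpin rose by 0.69 in controls and by 1.49 in mutants (interaction 0.81 ± 0.16, adjusted p = 0.0321). Npc2c, of the Niemann-Pick type sterol-binding family, rose by 0.84 in mutants and had a response of -0.30 in controls (interaction 1.14 ± 0.22, adjusted p = 0.0279). These 3 calls held in 3, 5 and 7 of 12 fits without 1 array, with adjusted p up to 0.0928 and 0.0900 for LpR1 and Npc2c without control starved replicate 2, and 0.0865 for Lpin without dSTING mutant fed replicate 3. Npc2c had low signal in every group, and both filters on signal left it out.

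Lsd-1, a perilipin of lipid droplets, was at 8.98, 9.09 and 9.73 in fed controls, 8.08, 8.18 and 8.24 in starved controls, 8.17, 8.58 and 8.69 in fed mutants, and 5.45, 6.21 and 6.25 in starved mutants. It fell in both genotypes, with an interaction of -1.41 ± 0.32 (adjusted p = 0.0534). On unlogged signals the difference of its responses lay above 0. Of 12 genes of fatty acid synthesis and desaturation none was called for the interaction by limma (5 at an unadjusted p under 0.05). In mutants 3 rose and 3 fell, where 7.30% and 9.52% of all genes did. The fatty acid synthase FASN1 (CG3523) had a response of 0.06 in controls and fell by 0.45 in mutants (interaction -0.51, 95% confidence interval -0.81 to -0.22, adjusted p = 0.0793). FASN2, named v(2)k05816 in the table, had -0.15 and -0.66 (interaction -0.51, interval -0.88 to -0.14, adjusted p = 0.149). Acetyl-CoA carboxylase (ACC) had 0.24 and 0.05 (interaction -0.19, interval -0.48 to 0.11, adjusted p = 0.477). The triglyceride lipase brummer (bmm) rose by 1.08 in controls and by 1.74 in mutants, with an interaction of 0.66 (adjusted p = 0.0909). None of 34 acyl-CoA synthetases and beta-oxidation genes was called by limma, and 7 had an unadjusted p under 0.05, near the 17.8% of all genes. Of them 27 lay below 0, with a median interaction of -0.15 that ran from -0.24 without control fed replicate 3 to -0.09 without dSTING mutant starved replicate 2.

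Of 38 measured genes of endoplasmic reticulum protein processing, 21 fell and 3 rose in starved mutants, where 9.52% of all genes fell and 7.30% rose. In controls 7 fell and none rose, where 5.55% of all genes fell and 5.68% rose. For the interaction 3 were called, all below 0, against 0.738% of all genes called below 0. The median interaction was -0.26, and it ran from -0.29 to -0.25 when single arrays were left out. Calreticulin, named Crc in the table, is a calcium-binding chaperone. It was at 10.17, 10.25 and 10.33 in fed controls, 10.05, 10.11 and 10.15 in starved controls, 10.32, 10.36 and 10.38 in fed mutants, and 9.35, 9.38 and 9.52 in starved mutants. The interaction was -0.79 ± 0.11 (adjusted p = 0.00693). OstDelta and OstStt3, subunits of the oligosaccharyltransferase that attaches glycans to new proteins, fell by 0.77 and by 0.84 in mutants, with interactions of -0.58 (adjusted p = 0.0296) and -0.53 (adjusted p = 0.0332). These 2 calls held in 5 and 3 of 12 fits without 1 array, up to 0.0952 without control starved replicate 2 and 0.0970 without dSTING mutant starved replicate 2. Mgat1, which starts the synthesis of complex N-glycans, is not in this list. It fell by 1.41 in mutants and had a response of -0.29 in controls (interaction -1.12, adjusted p = 0.0314, called in 4 of 12 fits without 1 array, up to 0.0900 without control starved replicate 2).

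Genes with the smallest p-values below 0 mostly fell further in mutants. Obp56f, an odorant-binding protein of the seminal fluid list, was at 8.97, 9.04 and 9.30 in fed controls, 8.23, 8.36 and 8.76 in starved controls, 9.23, 9.23 and 9.60 in fed mutants, and 6.35, 6.56 and 6.80 in starved mutants. Its responses differed by -2.13 ± 0.23, or 4.38 fold (adjusted p = 0.00243). Seminal fluid genes as a list fell in both genotypes: of 59 measured, 42 fell in controls and 45 in mutants, where 5.55% and 9.52% of all genes fell. For the interaction 2 were called, both below 0, against 0.738% of all genes. Their median interaction of -0.21 was -0.08 without control fed replicate 2. Glt, the basement membrane glycoprotein glutactin, was at 7.49 to 7.67 on all 6 control arrays, 7.40 to 7.49 in fed mutants and 6.34 to 6.57 in starved mutants (interaction -1.02 ± 0.12, adjusted p = 0.00354). Nha1, a sodium-proton exchanger, fell by 1.25 in mutants and had a response of -0.07 in controls (interaction -1.18, adjusted p = 0.00372). CG32191 differed between the genotypes in fed flies instead. It was at 3.61 to 3.74 in fed controls and 4.91 to 5.13 in fed mutants, and in starved flies at 3.75 to 3.86 and 3.66 to 3.82, where the groups overlapped (interaction -1.43 ± 0.12, adjusted p = 0.000235).

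Starvation moved 6 genes in opposite directions in the 2 genotypes. The cuticle protein gene Cpr67Fb was at 8.77, 9.05 and 9.25 in fed controls, 7.95, 8.19 and 8.26 in starved controls, 5.64, 5.79 and 5.82 in fed mutants, and 6.45, 6.77 and 7.53 in starved mutants. It fell by 0.89 in controls and rose by 1.17 in mutants, and it stayed below the controls in both states. CG32032 fell by 0.54 and rose by 0.50, and the order of the genotypes turned: fed mutants were at 6.47 to 6.63 and fed controls at 6.86 to 7.20, while starved mutants were at 6.98 to 7.21 and starved controls at 6.40 to 6.50. CG3528 fell by 0.42 in controls and rose by 0.74 in mutants.

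The other 3 rose in controls and fell in mutants. Jheh1, a juvenile hormone epoxide hydrolase, which breaks down that hormone, was at 8.0, 8.21 and 8.50 in fed controls, 8.70, 8.73 and 8.83 in starved controls, 7.81, 7.82 and 8.08 in fed mutants, and 7.27, 7.43 and 7.68 in starved mutants. The fed groups overlapped and the starved groups did not (interaction -0.96 ± 0.19, adjusted p = 0.0348). The transcription factor gene dar1 rose by 0.39 and fell by 0.41 (interaction -0.80, adjusted p = 0.0262), and CG13722 rose by 0.59 and fell by 0.41 (interaction -1.0, adjusted p = 0.0130). Of the 6, Jheh1 and dar1 lost the call in some fits without 1 array. They were called in 2 and 6 of 12, with adjusted p up to 0.0991 without dSTING mutant fed replicate 3 and 0.0844 without control starved replicate 2.

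**Figure D3:**
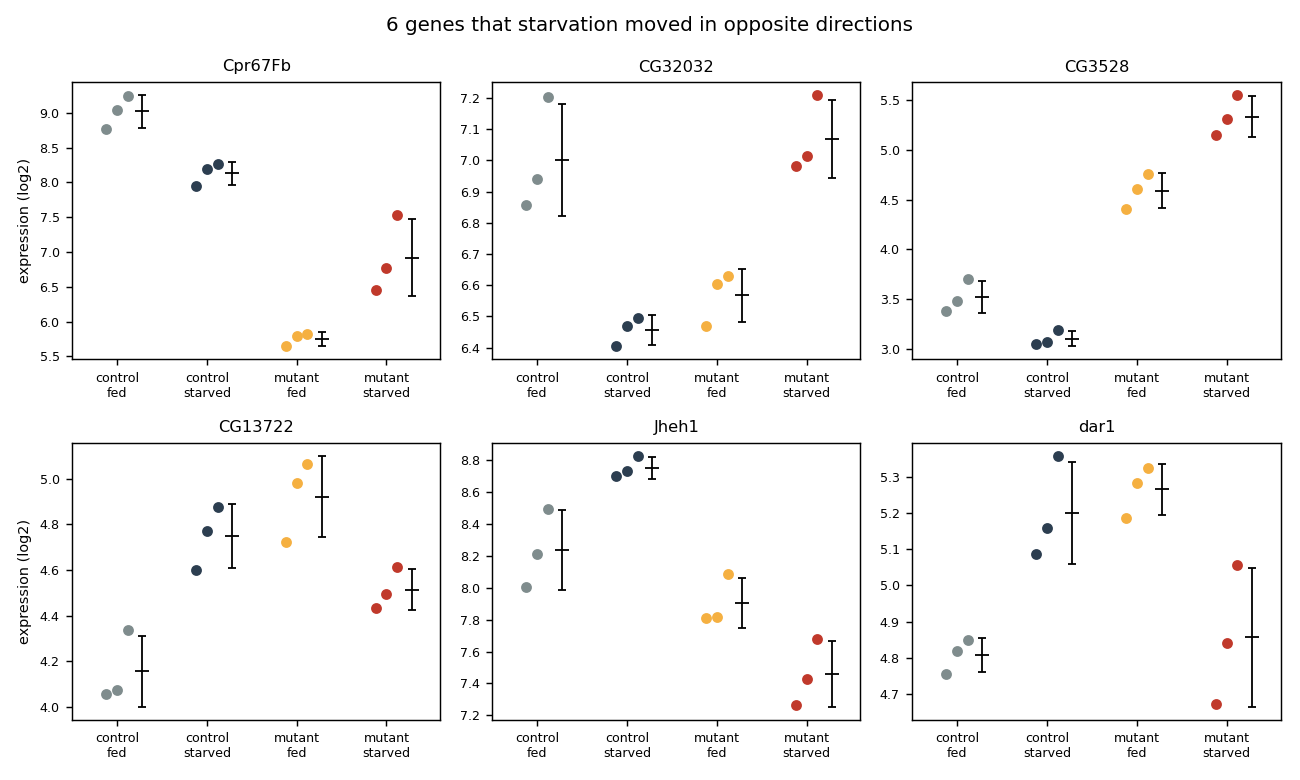
Log2 expression on every array (points, 3 per group, with group mean and SD) of the 6 genes that starvation moved in opposite directions in controls and mutants. The upper panels fell in controls and rose in mutants, the lower panels the other way round.

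The plot of list medians sets the response of each list in controls beside that in mutants. Of 48 measured genes of neuronal signaling, 15 rose in starved controls and 1 in starved mutants, where 5.68% and 7.30% of all genes rose. The interaction was below 0 for 47, where 50.8% of all genes lay above 0. None was called by limma, and 17 had an unadjusted p under 0.05, against 17.8% of all genes. Their mean log2 value was 5.91, 6.24 and 6.35 in fed controls, 6.39, 6.62 and 6.65 in starved controls, 6.47, 6.56 and 6.68 in fed mutants, and 6.41, 6.67 and 6.68 in starved mutants. The fed controls were the low group, and 1 of them stood below the rest. The median interaction of -0.36 was -0.20 without control fed replicate 3. Among these genes ple, the tyrosine hydroxylase of dopamine synthesis, had the smallest p (interaction -1.15, adjusted p = 0.0667).

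Of 24 muscle actin and sarcomere genes 21 lay below 0, where 50.8% of all genes lay above 0, with a median interaction of -0.32. None was called by limma, and 9 had an unadjusted p under 0.05, against 17.8% of all genes. Their mean log2 value was 8.81, 8.83 and 9.0 in fed controls, 8.92, 8.98 and 9.03 in starved controls, 8.94, 8.97 and 9.01 in fed mutants, and 8.64, 8.86 and 8.87 in starved mutants, so that here 1 starved mutant was lowest. Myosin heavy chain (Mhc) had a response of 0.16 in controls and fell by 0.40 in mutants (interaction -0.56, adjusted p = 0.0868). Small nucleolar RNAs guide the modification of ribosomal RNA. Of 231 measured, 208 had an interaction above 0 (50.8% of all genes did), with a median of 0.40, and 34 had an unadjusted p under 0.05, against 17.8% of all genes. Their mean log2 value was 5.96, 6.46 and 6.53 in fed controls, 5.99, 6.04 and 6.35 in starved controls, 6.21, 6.28 and 6.49 in fed mutants, and 6.50, 6.53 and 6.53 in starved mutants. The starved controls lay below the starved mutants, and 1 fed control was low. The median interaction was 0.58 without control fed replicate 1 and 0.29 without control fed replicate 3. Of the 231 only snoRNA:Me28S-C1237 was called, above 0, against 0.590% of all genes called above 0. It was at 3.69 to 4.08 in fed controls, 4.36 to 4.68 in starved controls, 3.69 to 4.13 in fed mutants, and 6.27 to 6.87 in starved mutants (interaction 2.17 ± 0.24, adjusted p = 0.00243).

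The values of antimicrobial peptide genes depended in part on 1 array. Of 34 measured peptide and Bomanin genes 27 had an interaction above 0, where 50.8% of all genes did, with a median of 0.57. An unadjusted p under 0.05 was found for 8, against 17.8% of all genes. Yet the only one of the 34 called lay below 0, against 0.738% of all genes. The mean log2 value of the 34 in starved mutants was 5.12, 5.34 and 6.75, so that 1 array stood far above the other 2. Fed mutants were at 5.37, 5.52 and 5.56, starved controls at 5.50, 5.55 and 5.77, and fed controls at 5.88, 6.23 and 6.32. Without dSTING mutant starved replicate 2 the median was 0.29, still above the 0.01 over all genes on all arrays. In controls 9 of the 34 fell and in mutants 6, where 5.55% and 9.52% of all genes fell. Drsl4, a drosomycin-like peptide gene, was the one called. It was at 10.12, 10.22 and 10.57 in fed controls, 9.12, 9.16 and 9.38 in starved controls, 8.48, 8.67 and 9.18 in fed mutants, and 6.03, 6.39 and 6.49 in starved mutants (interaction -1.39 ± 0.26, adjusted p = 0.0231, called in 8 of 12 fits without 1 array, up to 0.0659 without control starved replicate 2). On unlogged signals the difference of its responses lay above 0, so its sign depends on the log scale.

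**Figure D4:**
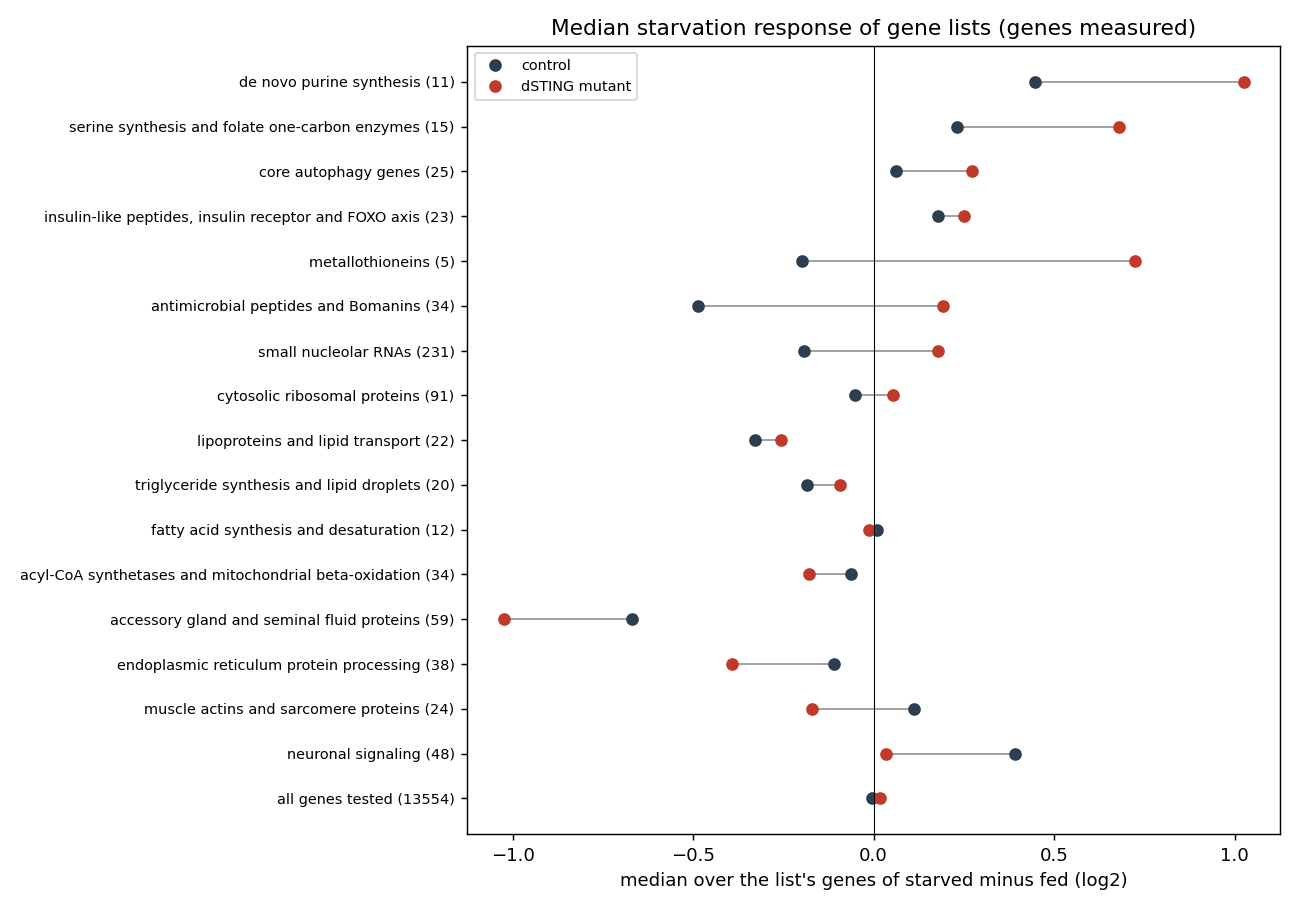
Median change from fed to starved flies (log2) over the genes of 16 lists and over all genes tested, in controls (dark) and mutants (red), with the number of genes measured in brackets. Purine synthesis lies highest in both genotypes, and seminal fluid genes lowest.

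**Figure D5:**
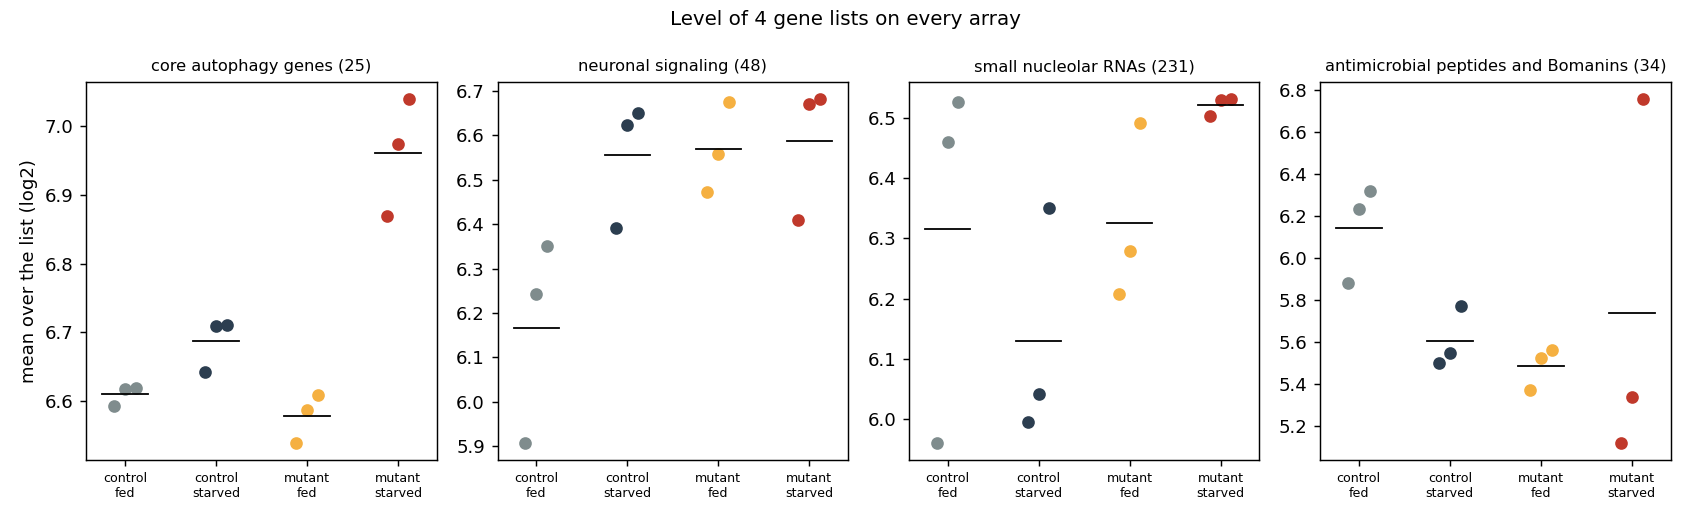
Mean log2 value over 4 gene lists on every array (points, 3 per group, line at the group mean). Autophagy genes are high on all 3 starved mutant arrays, while 1 fed control is low in the neuronal list, another in the small nucleolar RNA list, and 1 starved mutant is high for antimicrobial peptides.

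Enzymes of detoxification and structural genes gave single calls. Of 82 cytochrome P450 genes, Cyp6a9, Cyp309a2 and Cyp4ac3 were called above 0 (0.98, 0.87 and 1.42) and Cyp4d14 below 0 (-1.49), against 1.33% of all genes called. These calls held in 6, 2, 2 and 7 of 12 fits without 1 array, with adjusted p up to 0.0675, 0.125, 0.124 and 0.0856, each without control starved replicate 2. In starved mutants 18 P450 genes rose and 19 fell, where 7.30% and 9.52% of all genes did. In starved controls 2 rose and 8 fell, where 5.68% and 5.55% of all genes did. Of 123 cuticle protein genes 3 were called above 0, against 0.590% of all genes. Among them was the pupal cuticle gene Pcp (interaction 1.54, adjusted p = 0.00917). All 5 metallothioneins, which bind copper and zinc, had an interaction above 0, where 50.8% of all genes did. None was called by limma, and 1 had an unadjusted p under 0.05, against 17.8% of all genes. MtnE came nearest, but its signal was low in every group, and both filters on signal left it out. It was at 1.63, 1.93 and 1.98 in fed controls, 1.49, 2.37 and 2.73 in starved controls, 2.08, 2.13 and 2.26 in fed mutants, and 3.84, 3.97 and 4.69 in starved mutants (interaction 1.66 ± 0.39, adjusted p = 0.0575). The maltase Mal-B2, which splits sugars, rose by 1.80 in mutants and had a response of 0.41 in controls (interaction 1.39 ± 0.20, adjusted p = 0.00852).

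By the pathway annotation of the table, 32 of 97 KEGG pathways with at least 10 measured genes held a called gene, and 1.33% of all genes were called. Purine metabolism had 5 of 111, all above 0, with a median interaction of 0.06. Its smallest p-values belonged to Gyc32E and ade2, both described above. Next came the adenosine deaminase-related factor Adgf-D (interaction 1.29, adjusted p = 0.0262). Protein processing in the endoplasmic reticulum had 5 of 113, 1 above and 4 below 0, with a median interaction of -0.09. Crc and OstDelta, described above, had the smallest p-values there. Arginine and proline metabolism had 3 of 51, all below 0, with a median interaction of -0.23 and P5cr-2, a pyrroline-5-carboxylate reductase, as the first (interaction -0.72, adjusted p = 0.0271). Ether lipid metabolism had 2 of 23 above 0, CG11425 (1.38) and the secreted phospholipase GIIIspla2 (1.09). Sphingolipid metabolism had 2 of 25 above 0, CG11425 again and the sphingosine kinase Sk1 (interaction 0.84, adjusted p = 0.0460). Of these genes Adgf-D, P5cr-2, CG11425, GIIIspla2 and Sk1 stayed called in 4, 5, 3, 5 and 3 of 12 fits without 1 array, with adjusted p up to 0.0870, 0.0844, 0.118, 0.127 and 0.137, each without control starved replicate 2.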

How the data were processed

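Total RNA of 12 whole-body samples was labelled and hybridised to Affymetrix arrays. The authors normalized the arrays by RMA (affy 1.48.0, R 3.2.0, per the labels) and deposited log2 expression values of 13554 genes. The table also holds 32 columns of the authors' own comparisons (fold changes, test statistics, p- and q-values), which were not used. The genome build is not given in the sources used here. Array values carry no read depth, so 3 arrays per group limit the precision.

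One linear model with a mean per group was fitted with limma 3.58.1 in R 4.3.3 to all 12 arrays (8 residual and 4.50 prior degrees of freedom), with no filter on low values. The interaction was (mutant starved minus mutant fed) minus (control starved minus control fed). Over the whole table p-values were adjusted by the Benjamini-Hochberg method and called under 0.05, and the script was tested on simulated data. Values after ± are standard errors of the interaction.

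Gene names are those of the table, and 13263 of 13554 Entrez identifiers matched RefSeq, whose symbols are given where they differ. Array columns show the group but not the replicate, so fits that leave out an array or use replicate numbers ran on the sample records, which hold the same values to 2 decimals. Named were the 12 smallest interaction p-values in each direction, of which the text gives part, up to 4 members of a list and 3 of a pathway, dSTING, ACC and both fatty acid synthases, and up to 5 genes of each sign called in opposite directions. Other genes were chosen after their values were seen. The members and lists were chosen with earlier results of these data known. Alternatives were a replicate block, trended and robust moderation, array weights, median centring, repeated quantile normalization, 2 filters on signal, other thresholds and leaving out each array.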

Additional observations from a re-analysis of the deposited data

Results flagged for a closer look

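The starvation response differed between the genotypes by the test of the difference itself in 180 genes. In 6 of them starvation was called in both genotypes with opposite signs. The differences of the responses (mutant minus control, log2) were 2.06 for Cpr67Fb, 1.17 for CG3528 and 1.04 for CG32032, which fell in controls and rose in mutants. They were -1.0 for CG13722, -0.96 for Jheh1 and -0.80 for dar1, which rose in controls and fell in mutants. With 3 arrays per group, single arrays were not tested as outliers.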

How the results depend on the processing

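The interaction was called for 180 genes (80 above and 100 below 0). Array quality weights gave 2096 calls (1478 over 1.4 fold, 966 above and 1130 below 0) and 4528 calls for starvation in controls, above the 3315 in mutants. Only the genes above the median signal gave 161 below 0. At an adjusted p under 0.10 there were 591 calls (251 and 340), and under 0.01 there were 27 (14 and 13). Over 2 fold there were 89. Trended moderation, centring, repeated quantile normalization, the looser signal filter and the sample records gave 223, 171, 181, 248 and 174 calls. With single arrays left out the count ran from 58 to 934 (58 to 900 over 1.4 fold, 25 to 428 above 0, 33 to 506 below 0), that for starvation in controls from 370 to 3011, and that in mutants from 1576 to 2614. Leaving out an array also lowers the degrees of freedom; the cause of the changes was not tested. With responses at an unadjusted p under 0.05, the called genes fell into 76 in mutants only, 6 in controls only and 22 in opposite directions, in place of 120, 12 and 6.

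The labels do not say whether replicate numbers pair the samples. Deviations of same-numbered samples from their group means correlated between -0.451 and 0.370, which does not settle it. With the replicate number as a block 95 genes were called (95 over 1.4 fold, 36 above and 59 below 0), of which 92 were among the 180.

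No named gene changed the sign of its log2 interaction under any alternative. On unlogged signals the difference of the responses turned its sign for CG15155 (3.86), Drsl4 (307) and Lsd-1 (47.7). Of 87 named and called genes, 36 stayed called without any 1 array and 52 under every other alternative that tested them.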

Other observations

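For 12 genes with a called interaction, chosen for that class after their values were seen, starvation was called in controls only. With responses at an unadjusted p under 0.05 the class held 6. The genes CG14205, CG4269, CG13494, TwdlO and CG11077 fell in controls. CG14205 was at 4.85, 4.87 and 5.35 in fed controls and at 2.96, 3.02 and 3.13 in starved controls, while fed mutants lay at 3.17 to 3.69 and starved mutants at 3.09 to 3.24, so that only the fed controls were high. The genes that rose in controls were CG34220, the gustatory receptor gene Gr98a, the RNA-binding protein gene cpo, CG11321 (the linear ubiquitin ligase LUBEL), Hus1-like of the DNA damage checkpoint, the transcription factor gene apt and CG14073. Their rises ran from 0.43 for apt to 0.96 for Gr98a, and their mutant responses from -0.24 for cpo to 0.08 for CG14073. The interaction of CG14205, CG4269 and CG11321 stayed called without any 1 array, and that of the others in 1 (apt) to 9 (cpo) of 12 such fits. TwdlO, Gr98a and Hus1-like had low signal in every group, and both filters on signal left them out.

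A few more genes were chosen after their values were seen. CrebA, a transcription factor of secretory capacity, had a response of -0.08 in controls and fell by 0.94 in mutants (interaction -0.86, adjusted p = 0.0420). The quiescin sulfhydryl oxidases CG17843 (Qsox2) and CG6690 (Qsox3) had interactions of -1.03 and -1.69. Of these CG17843 stayed called without any 1 array, and CrebA and CG6690 in 3 and 5 of 12 such fits, with adjusted p up to 0.124 and 0.107 without control starved replicate 2. The mitophagy receptor CG5059 (BNIP3) was called above 0 (0.68, in 2 of 12 such fits). The most extreme values were 2.72 ± 0.59 for CG12826 and -2.48 ± 0.48 for CG33511, with the call of each held in 3 of 12 fits without 1 array (adjusted p up to 0.101 without dSTING mutant fed replicate 2 and 0.0915 without control starved replicate 2). Of 2101 genes on the X chromosome 0.619% were called, against 1.33% of all genes.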
